A study of Mus musculus with 13 samples.

Results

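The mitosis genes described here are 35 genes whose products carry a cell from G2 through chromosome segregation to cytokinesis: mitotic cyclins and kinases, the chromosomal passenger complex, the spindle checkpoint, the kinetochore, spindle motors, the central spindle, and 2 proteins of mitotic chromosomes. They were taken by name from a deposited count table of 35976 gene symbols, with earlier results of these data known. All 35 of 35 were present, had a count in every library and were among the 14702 genes tested. RNA was sequenced from male primordial germ cells (PGCs), the embryonic precursors of sperm, of mouse embryos at E14.5. In all groups the cells carried an Oct4-GFP reporter, a fluorescent protein driven by the regulatory sequence of Pou5f1, and were sorted by it; RNA came from 5000 cells per extraction. The 4 groups, with 3 libraries each, were wild type (WT), Tet1-KO, Tet1-HxD and Tet1-V, named below WT, KO, HxD and V. TET1 turns 5-methylcytosine of DNA into its oxidised forms; HxD is known as a catalytically inactive form, and V as a form that oxidises 5-methylcytosine but goes little further. The sources used here give no strain, zygosity, litter or number of embryos per library, so the spread between libraries of a genotype may be technical, and p-values measure that spread only. The design lets the mitotic programme be compared between Tet1-KO germ cells, germ cells with each altered TET1, and the wild type. TET1 protein is not part of these data.

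In mitosis, cyclin B bound to CDK1 drives entry, kinetochores tie chromosomes to spindle microtubules, the spindle checkpoint holds the cell until every kinetochore is attached, and the anaphase-promoting complex with CDC20 then destroys securin and cyclin B. The genes for these proteins are transcribed together late in the cycle, under the B-MYB, FOXM1 and MuvB proteins, and are repressed in resting cells. Male germ cells of the mouse multiply after reaching the gonad and then leave the cycle around mid-gestation, where they rest until after birth. In bulk RNA of this kind, fewer dividing cells and less RNA per dividing cell cannot be told apart.

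The mitosis genes were strongly expressed in all 4 genotypes, and no difference between genotypes passed the test for any of them. The largest was in Hmmr, a microtubule-binding spindle protein, whose mean level was 140 CPM (read counts scaled by TMM to a common library total) in WT and 84.1 CPM in KO. Ccnb1, the cyclin that activates CDK1 at mitotic entry, was below the lowest WT library in all 9 libraries of the other genotypes. It did not pass the test either, and the share of all genes with that pattern was not counted. For nearly all 35 genes the confidence interval of the fold change against WT lay within 2-fold in either direction. These intervals were taken gene by gene, without adjustment for the number of genes or comparisons. They apply to relative levels and measure only the spread between libraries, which may be technical, so they do not bound the effect of genotype.

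Library totals ran from 13584484 to 29641963 counts, and the mitosis genes had 923 to 44737 raw counts each in a library. Counting error was thus small beside the spread between libraries for most genes, but not for Nuf2 and Kif2c within WT. Tet1, the targeted gene, was at 213 ± 11.8 CPM in KO (SD, n = 3) against 608 ± 27.0 in WT, 626 ± 101 in HxD and 480 ± 133 in V (log2 fold change KO to WT -1.51, adjusted p = 1.4142e-05 by edgeR's quasi-likelihood test). The 15 germ cell markers summed to between 4436 and 5763 CPM, with the 3 WT libraries, from 5531 CPM, above all others. Dazl alone was at 1605 to 1906 CPM in WT and at 576 to 1172 elsewhere, whereas Dppa5a was at 349 to 421 CPM in WT and at 486 to 682 elsewhere, and the median log2 fold change over the 15 markers was 0.14 in KO and 0.03 in HxD and V. The 12 Sertoli markers summed to between 172 and 582 CPM, highest in V 2 (582) and WT 3 (375); Dmrt1, which germ cells also express, held 128 to 225 CPM of each sum. The Leydig, interstitial, macrophage and erythroid lists stayed at or below 39.1 CPM, with Lhcgr, Lum and Hba-a2 among markers at 0 in all libraries. The endothelial list lay between 147 and 306 CPM, of which Pecam1 held 119 to 273. Cdh5, Kdr, Tek, Flt1 and Esam were at 7.71 CPM or less. Cldn5 was at 2.08 to 30.1 CPM and Egfl7 at 2.59 to 23.8, both highest in V 1. WT 3 also had the fewest genes with a count (11529) and V 2 the most (15715). The summed level of the mitosis genes was 9740 CPM in WT 3 and 9290 in V 2, inside the range of the other libraries; the part of other cell types in single genes was not tested.

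Levels of different genes were compared in WT as CPM per kb of exon. Exon length was the union of all exons annotated for a gene, which can exceed the length of its transcripts. The median of the 35 genes was 39.5 CPM per kb, against 5.42 over the 13842 tested genes with a length, and the median gene of the list stood at percentile 90.2 of all. Top2a at 175 ± 12.2 CPM per kb, Ccnb2 at 170 ± 20.8 and Cdc20 at 159 ± 12.1 (SD, n = 3) led the list and did not differ beyond their spread. Incenp followed at 102 ± 8.93 CPM per kb. Kif23 was lowest at 11.6 ± 3.16 CPM per kb, still at percentile 66.7, below Ndc80 at 15.2 ± 1.76 and Nuf2 at 18.6 ± 0.02, and the first 2 of these overlapped within their SDs. These are levels of polyadenylated RNA and do not count cells in mitosis.

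**Figure D1:**
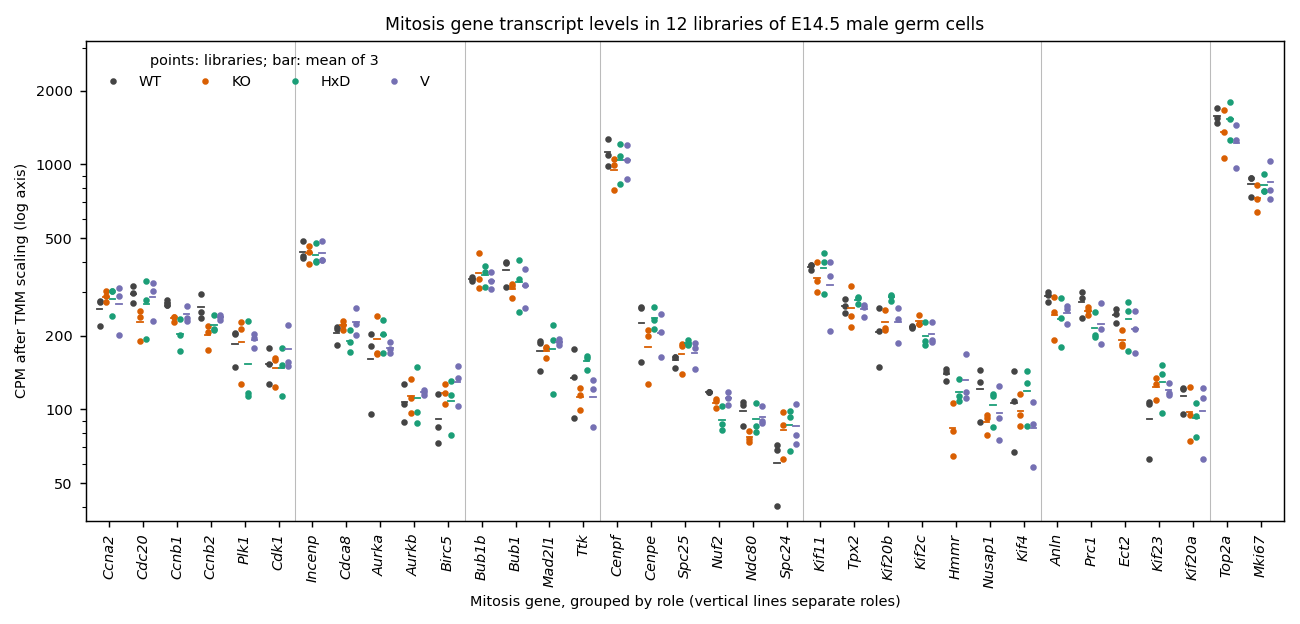
CPM after TMM scaling (log axis) of each of the 35 mitosis genes in each of the 12 libraries, ordered by role, with points coloured by genotype. The genotypes overlap for most genes, from 40.4 CPM for Spc24 in WT 3 to 1807 CPM for Top2a in HxD 2.

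The levels were even across libraries. The highest library exceeded the lowest by 1.24-fold (Incenp) to 2.61-fold (Hmmr), with a median of 1.70-fold, against 1.80-fold over the 3477 genes averaging at least as much as the lowest mitosis gene. The biological coefficient of variation fitted by edgeR had a median of 0.176 for the 35 genes (0.151 to 0.232) and of 0.443 over single genes tested, most of which were expressed at lower levels. The standard error of a log2 fold change was accordingly small, with a median of 0.19 for the mitosis genes and 0.51 for all genes in KO against WT. Summed over all 35 genes, the level was 9879, 10605 and 9740 CPM in WT 1 to 3. It was 10126, 8314 and 9175 CPM in KO, 10056, 10288 and 9088 in HxD, and 8663, 9290 and 10368 in V. The sums of every other genotype overlapped those of WT, although their means of 9205 ± 906 (KO), 9811 ± 636 (HxD) and 9440 ± 862 CPM (V, SD, n = 3) were below the WT mean of 10075 ± 465. Without Top2a, Mki67 and Cenpf, the means were 6172 ± 383 (KO), 6414 ± 232 (HxD) and 6330 ± 419 CPM (V), against 6550 ± 333 in WT.

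**Figure D2:**
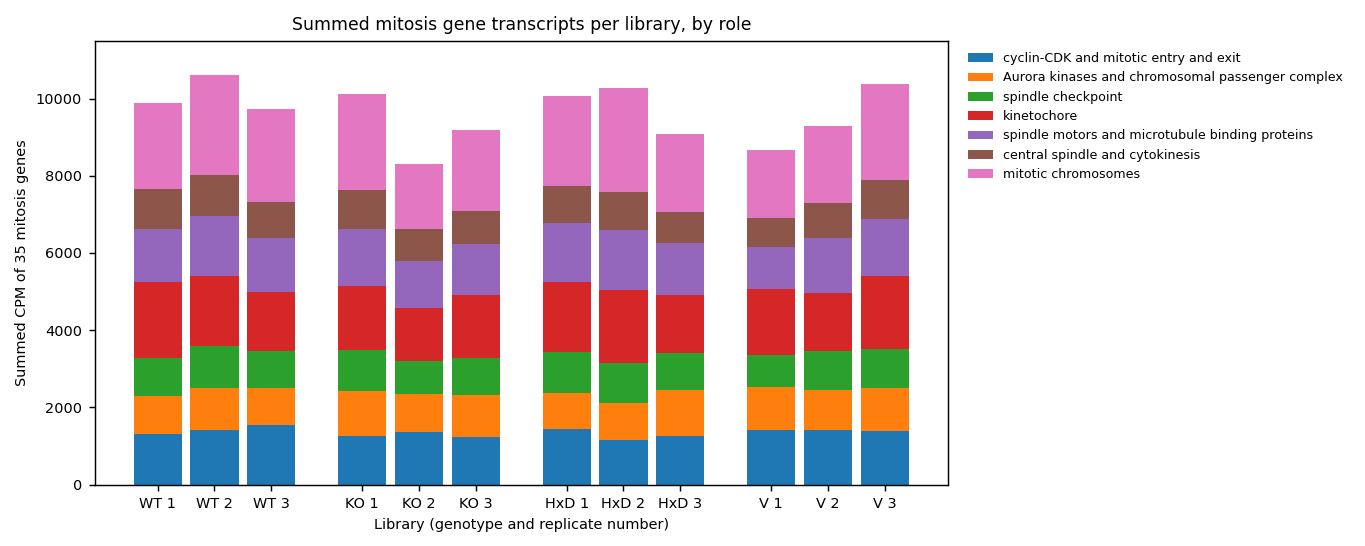
Summed CPM after TMM scaling of the 35 mitosis genes, 1 stacked bar per library with a segment for each of the role groups. WT libraries lie at 9740 to 10605 CPM for the whole list and the other genotypes reach from 8314 to 10368, overlapping them.

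Counted over the list, 0 of 35 genes passed an adjusted p of 0.05 in KO, HxD or V against WT, in the 3 pairs of the other genotypes, or in the joint test of any difference among genotypes by edgeR. Over all genes tested, the share called was 0.218% in KO against WT, 0.034% in HxD against WT and 0% in V against WT. It was 0.0068% in HxD against KO, 0.0204% in V against KO, 0% in V against HxD and 0.0748% in the joint test, so few genes of any kind were called. DESeq2 also called 0 of 35 in each pair, against 1.46%, 1.46% and 0.529% of all genes in KO, HxD and V against WT and 0.536%, 0.406% and 0.722% in HxD against KO, V against KO and V against HxD. At an unadjusted p under 0.05 by edgeR, 3 of 35 genes (8.57%) were lower in KO and 0 higher, against 4.54% and 3.75% of all genes. In HxD 3 were higher and 1 lower, against 3.42% and 4.82%, and in V 1 was higher and 1 lower, against 2.85% and 3.2%. These shares are near the background: in either direction they came to 8.57%, 11.4% and 5.71% of the list, beside 8.3%, 8.24% and 6.05% of all genes. Between the other genotypes 2 genes, Hmmr and Ttk, were higher in HxD than in KO (background 1.88%) and 0 lower (2.79%). Only Hmmr was higher in V than in KO (2.29%) with 0 lower (1.81%), and only Ttk was lower in V than in HxD (1.63%) with 0 higher (3.43%). In either direction the background of these 3 pairs was 4.67%, 4.1% and 5.07%. In the joint test 1 gene, Hmmr, was at an unadjusted p under 0.05, against 6.28% of all genes.

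The log2 fold change was below 0 for 23 of 35 genes (65.7%) in KO, 21 (60%) in HxD and 22 (62.9%) in V, all against WT, beside 49.5%, 51.6% and 48.9% of all genes. The 3 comparisons share the WT libraries, so these counts are not independent of each other. Against KO it was below 0 for 13 of 35 (37.1%) in HxD and 11 (31.4%) in V, beside 51.5% and 49.2%, and for 17 (48.6%) in V against HxD, beside 47.2%. Median log2 fold changes were small, at -0.12, -0.04 and -0.08, against 0.0026, -0.02 and 0.01 over all genes, and those of HxD and V turned to 0.03 without HxD 3 and to 0.01 without V 1. Single genes ranged from -0.73 to 0.45 in KO, from -0.42 to 0.52 in HxD and from -0.36 to 0.50 in V. The 95% interval lay within 2-fold in both directions for 34 of 35 genes in each of the 3 comparisons with WT. Hmmr in KO and Spc24 in HxD and in V were the exceptions. Over all genes tested the share was 35.5%, 36.5% and 36.4%. Most genes tested were expressed at lower levels, and the share among genes at comparable levels was not counted. The interval also lay within 2-fold for all 35 in HxD against KO, for 34 in V against KO and for 34 in V against HxD (39.1%, 38.2% and 38.3% of all genes).

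**Figure D3:**
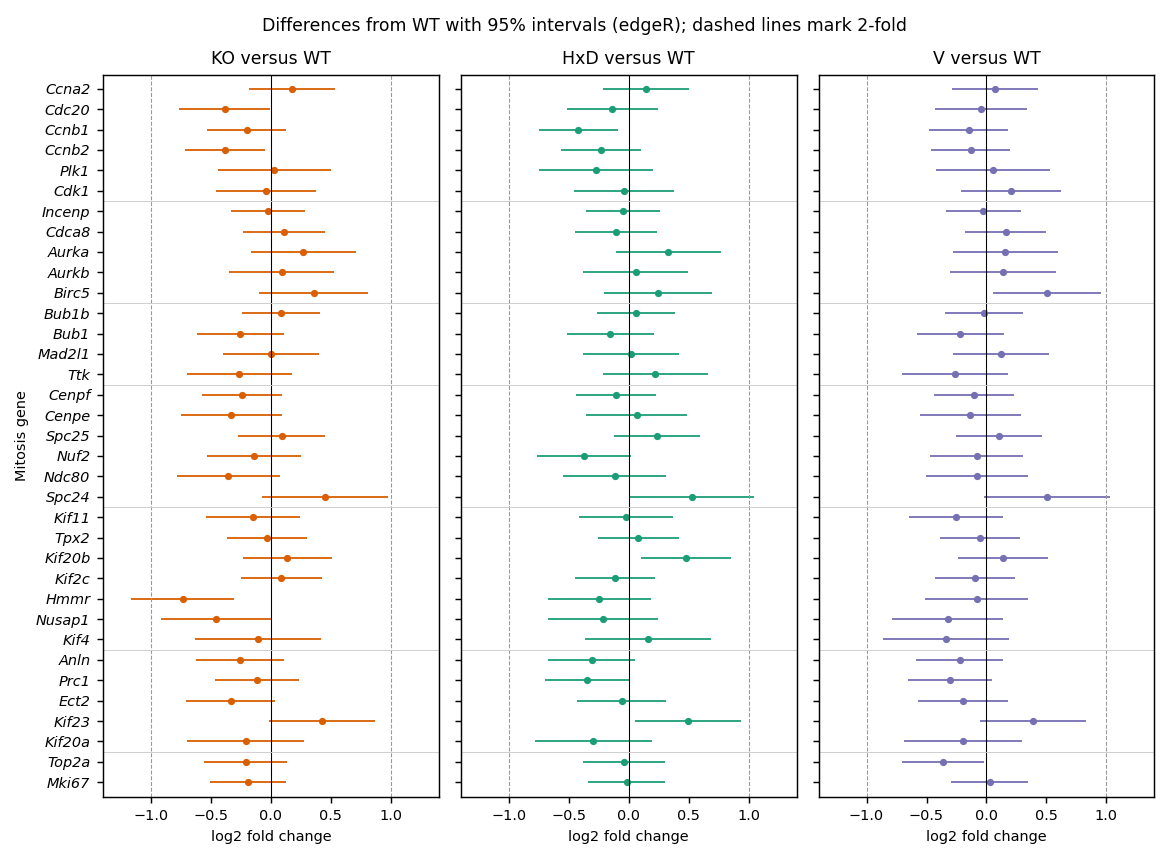
Log2 fold change of each of the 35 mitosis genes in KO, HxD and V against WT by edgeR, with 95% intervals, ordered by role. The intervals of all but Hmmr in KO and Spc24 in HxD and V stay within the lines that mark a 2-fold change.

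The cyclin and CDK group, with Plk1 and Cdc20, holds the switch into and out of mitosis. Its summed level was 1421 ± 115 CPM in WT, 1287 ± 62.2 in KO, 1278 ± 141 in HxD and 1406 ± 22.8 in V (SD, n = 3), and its ranges overlapped between WT and each other genotype. Ccnb1 was at 266, 280 and 265 CPM in WT. It was at 238, 239 and 228 CPM in KO, at 202, 172 and 233 in HxD, and at 230, 237 and 265 in V. All 9 libraries outside WT were below the 3 WT libraries, although V 3 (265.2 CPM) was under WT 3 (265.5 CPM) by far less than the spread. The log2 fold change was -0.42 in HxD (95% interval -0.75 to -0.09, adjusted p = 0.511 by edgeR), -0.20 in KO (adjusted p = 0.833) and -0.15 in V (adjusted p = 1). Ccnb2, the second mitotic cyclin B, was at 250, 236 and 297 CPM in WT and at 208, 218 and 175 CPM in KO, without overlap. The log2 fold change was -0.38 (SE 0.16, adjusted p = 0.526 by edgeR). In HxD it was at 242, 210 and 213 CPM and in V at 238, 233 and 243, overlapping WT in both. Cdc20, the activator of the anaphase-promoting complex, was at 298, 273 and 318 CPM in WT and at 190, 239 and 252 CPM in KO, again without overlap. Its log2 fold change in KO was -0.39 (SE 0.19, adjusted p = 0.592 by edgeR), while HxD (336, 194 and 278 CPM) and V (328, 305 and 229 CPM) spread to both sides of WT. Over all genes tested, 8.15% were likewise below every WT library in KO.

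Cdk1 itself, the kinase of the switch, overlapped WT in every genotype. It had 127 to 179 CPM in WT, 123 to 162 in KO, 114 to 178 in HxD and 150 to 221 in V, with log2 fold changes of -0.05, -0.04 and 0.20 (SE 0.20 each, adjusted p = 1 by edgeR in all 3). Ccna2, the cyclin of S phase and early mitosis, had the highest mean count of the group over all 12 libraries (274 CPM), though not in WT, at 256 ± 32.5 CPM in WT, 289 ± 15.1 in KO, 283 ± 37.5 in HxD and 269 ± 60.0 in V (SD, n = 3). Its log2 fold changes were 0.17, 0.15 and 0.07 (SE 0.18 each, adjusted p = 0.937, 0.943 and 1 by edgeR). Plk1, a kinase of centrosome maturation and mitotic entry, ranged from 113 CPM in HxD 2 to 229 in HxD 1, so that the widest spread of this gene lay within a single genotype.

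Promoters of 7 of the genes described, chosen after their values and letters were seen, are shown because late cell-cycle genes are known for 2 promoter elements, the CCAAT box and the cell-cycle genes homology region (CHR) bound by MuvB. RefSeq sequences of GRCm38.p6 gave a window from 250 bases before to 50 after the start for 29 of the 35 genes; Ccna2, Aurkb, Kif20a, Tpx2, Spc24 and Incenp had no entry. Ccnb1, Ccnb2, Cdc20, Hmmr and Top2a, on the minus strand, had lower means in KO, and Nusap1 (lower in KO) and Kif20b (higher in HxD), on the plus strand, are set beside them as genes with differences of like size and none of the letters in the stretch printed. The 120 bases before the start are printed 5′ to 3′ on the strand of the gene, with capitals for CCAAT or its complement ATTGG and for the CHR letters TTTGAA or TTCGAA or the complement TTCAAA.
Ccnb1, chr13:100786487-100786606: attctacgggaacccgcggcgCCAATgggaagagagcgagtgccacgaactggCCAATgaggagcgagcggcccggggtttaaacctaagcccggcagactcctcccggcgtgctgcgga
Ccnb2, chr9:70421555-70421674: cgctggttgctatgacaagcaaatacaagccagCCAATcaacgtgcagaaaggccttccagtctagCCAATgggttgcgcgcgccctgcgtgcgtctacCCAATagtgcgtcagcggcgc
Cdc20, chr4:118437344-118437463: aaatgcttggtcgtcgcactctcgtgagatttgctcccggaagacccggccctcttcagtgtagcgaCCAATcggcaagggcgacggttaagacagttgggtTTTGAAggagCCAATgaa
Hmmr, chr11:40733438-40733557: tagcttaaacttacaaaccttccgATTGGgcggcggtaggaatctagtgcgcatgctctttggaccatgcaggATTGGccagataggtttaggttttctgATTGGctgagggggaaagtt
Top2a, chr11:99024190-99024309: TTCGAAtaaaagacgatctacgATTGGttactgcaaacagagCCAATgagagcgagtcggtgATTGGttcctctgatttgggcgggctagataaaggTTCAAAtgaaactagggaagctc
Nusap1, chr2:119618178-119618297: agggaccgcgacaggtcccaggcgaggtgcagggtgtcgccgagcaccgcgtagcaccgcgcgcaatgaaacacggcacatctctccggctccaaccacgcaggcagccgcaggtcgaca
Kif20b, chr19:34922238-34922357: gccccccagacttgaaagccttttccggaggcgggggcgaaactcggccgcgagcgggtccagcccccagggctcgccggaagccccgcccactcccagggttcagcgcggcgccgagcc
Ccnb1 and Cdc20 hold 2 CCAAT boxes each in this stretch, and Ccnb2, Hmmr and Top2a hold 3 each. The boxes of Ccnb1 start 32 bases apart, those of Ccnb2 33 bases apart, and the CHR letters of Cdc20 begin 18 bases before the start.

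Over the whole windows, searched on both strands, CCAAT letters were present in 21 of the 29 genes (72.4%) and in 37.41% of all 32851 windows of the same length. CHR letters were present in 23 of 29 (79.3%) against 19.23%, and both together in 19 of 29 (65.5%) against 7.525%. At least 2 CCAAT boxes occurred in 15 of 29 genes (51.7%), against 11.7% of all windows. The last T of CCAAT can also be the first T of the CHR letters, so that matches may share an end base. A match is a description of these letters and not a measured site, and the absence of the letters says only that they are not in the window. In the 120 bases before the start, more than 1 CCAAT box was present in 12 genes. Among them Bub1, Ccnb1, Ccnb2, Cdc20, Ect2, Hmmr, Top2a and Ttk had lower means in KO, and Aurka, Cdca8 and Spc25 higher ones. Cdk1, the remaining gene, had a fold change near 0, and its 2 boxes also stand 32 bases apart. No CCAAT box was present there in Anln, Mki67, Ndc80, Nuf2 and Nusap1, also with lower means in KO, or in Birc5, Kif20b and Kif2c, with higher ones. Mad2l1, likewise without a box there, had a fold change near 0. Of all 35 genes, 65.7% had a log2 fold change below 0 in KO, and a link between boxes and direction was not tested.

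Aurka and Aurkb encode the Aurora kinases, of spindle poles and of centromeres, and Birc5, Cdca8 and Incenp the proteins that hold Aurora B in the chromosomal passenger complex. Their summed level was 1003 ± 64.8 CPM in WT, 1076 ± 88.8 in KO, 1037 ± 139 in HxD and 1086 ± 43.4 in V (SD, n = 3), without a direction beyond the spread. Incenp, the scaffold of the complex, was the steadiest of the 35 genes at 393 to 487 CPM in all 12 libraries, with log2 fold changes of -0.03, -0.05 and -0.03 in KO, HxD and V (SE 0.15 each, adjusted p = 1 by edgeR in all 3). Birc5, which encodes survivin, was at 84.5, 116 and 72.8 CPM in WT and at 150, 104 and 134 CPM in V, overlapping. Its log2 fold change in V was 0.50 (95% interval 0.05 to 0.96, adjusted p = 0.789 by edgeR) and 0.36 without WT 3. In KO it was at 106, 117 and 127 CPM and in HxD at 114, 78.9 and 130, with log2 fold changes of 0.36 (0.22 without WT 3) and 0.24 (adjusted p = 0.690 and 0.860 by edgeR). Aurka was at 95.8 CPM in WT 3 and at 168 to 240 CPM in all other libraries, with WT 1 and WT 2 (181 and 203 CPM) inside the range of the other genotypes. Aurkb stayed between 87.8 and 149 CPM and Cdca8 between 171 and 260 CPM.

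Of the spindle checkpoint genes, Bub1b, the BUBR1 subunit of the inhibitor of CDC20, had 340 ± 6.33 CPM in WT and 361 ± 63.3, 355 ± 35.7 and 335 ± 27.0 in KO, HxD and V (SD, n = 3). Its log2 fold changes were 0.09, 0.06 and -0.02 (SE 0.16 each, adjusted p = 1 by edgeR in all 3). Ttk, the MPS1 kinase that starts checkpoint signalling, was at 136, 176 and 92.3 CPM in WT. It was at 122, 99.7 and 115 CPM in KO, 165, 144 and 162 in HxD and 84.3, 131 and 121 in V. HxD thus lay above every KO and V library but inside the WT range, with a log2 fold change of 0.49 against KO (SE 0.21, adjusted p = 0.884 by edgeR), of -0.48 for V against HxD (adjusted p = 0.861), and of -0.26, 0.22 and -0.26 for KO, HxD and V against WT (adjusted p = 0.853, 0.885 and 0.962). Bub1, a kinetochore kinase, ranged from 249 to 406 CPM, with both ends of the range in HxD. Mad2l1, the MAD2 protein that binds CDC20, ranged from 116 to 221 CPM, again with both ends in HxD.

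The kinetochore genes comprise the NDC80 complex (Ndc80, Nuf2, Spc24 and Spc25), which grips microtubules, and the large proteins Cenpe and Cenpf of the outer kinetochore. The 4 subunits, which bind each other in equal numbers in the complex, had fold changes of either sign, none past the test. Nuf2 was at 118, 118 and 118 CPM in WT, and below it at 110, 109 and 101 CPM in KO, at 103, 86.9 and 82.3 in HxD and at 117, 111 and 104 in V. As for Ccnb1, no other library reached WT, and the log2 fold change was -0.37 in HxD (SE 0.19, adjusted p = 0.608 by edgeR), -0.14 in KO and -0.08 in V (adjusted p = 0.985 and 1). The near identity of the 3 WT values is narrower than the spread of any other mitosis gene. It is also narrower than the counting error of the 1274 to 3022 raw counts of Nuf2 per library, and makes groups without overlap easy to reach. Ndc80 was at 85.6 to 107 CPM in WT and at 73.7 to 81.9 CPM in KO, without overlap, and within the WT range or below it elsewhere.

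Spc24 had a higher mean in each of the other genotypes than in WT. It was at 68.2, 71.8 and 40.4 CPM in WT, at 62.8, 86.0 and 97.7 in KO, at 93.0, 67.5 and 98.9 in HxD, and at 105, 78.4 and 72.2 in V. Only V was above all WT libraries, and WT 3 was the lowest of the 12. The log2 fold changes of 0.45, 0.52 and 0.50 (SE 0.26 each, adjusted p = 0.644, 0.5997 and 0.828 by edgeR) became 0.23, 0.30 and 0.28 without WT 3. Spc25 was above WT in HxD (183 to 192 against 148 to 164 CPM) and overlapped it in KO and V. Cenpf, the most abundant of the group by count, was at 1119 ± 145 CPM in WT, 946 ± 143 in KO, 1042 ± 192 in HxD and 1039 ± 166 in V (SD, n = 3). Its log2 fold changes were -0.24, -0.10 and -0.11 (SE 0.16 each, adjusted p = 0.738, 0.973 and 1 by edgeR). Cenpe, a kinesin of chromosome alignment, ranged from 127 CPM in KO 2 to 261 in HxD 2, overlapping between WT and each genotype.

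Hmmr, among the spindle motors and microtubule-binding proteins, had the smallest p of the 35 genes. It was at 131, 143 and 147 CPM in WT and at 106, 64.5 and 81.6 CPM in KO. It was at 113, 108 and 133 CPM in HxD and at 112, 117 and 168 in V. KO libraries were below every library of the other genotypes, nearly meeting them at KO 1 (106.4 CPM) and HxD 2 (108.4 CPM). The log2 fold change in KO was -0.73 (SE 0.21, 95% interval -1.16 to -0.30), with an adjusted p of 0.179 by edgeR and of 0.0746 by DESeq2. Against KO, the log2 fold change of Hmmr was 0.49 in HxD (adjusted p = 0.884 by edgeR) and 0.65 in V (adjusted p = 0.819). HxD and V differed from WT by -0.24 and -0.08 (adjusted p = 0.827 and 1 by edgeR), and the joint test of the 4 genotypes gave an adjusted p of 0.509.

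Kif20b, a kinesin of late mitosis, was at 209, 260 and 149 CPM in WT and at 291, 294 and 277 CPM in HxD, which lay above all WT, KO and V libraries. Its log2 fold change in HxD was 0.48 (SE 0.18, adjusted p = 0.511 by edgeR) and 0.29 without WT 3. In KO (254, 212 and 214 CPM) and V (187, 258 and 234 CPM) it overlapped WT, with log2 fold changes of 0.14 each (adjusted p = 0.985 and 1 by edgeR) that turned to -0.05 each without WT 3. Nusap1, which bundles spindle microtubules, was at 88.9, 130 and 145 CPM in WT and at 92.2, 78.7 and 94.5 CPM in KO. It was at 84.6, 116 and 113 CPM in HxD and at 74.8, 92.1 and 124 in V, overlapping WT in all 3, with log2 fold changes of -0.45, -0.22 and -0.32 (SE 0.23 each, adjusted p = 0.606, 0.912 and 0.883 by edgeR).

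Kif11, the motor that separates spindle poles, had 382 ± 9.21 CPM in WT, 345 ± 49.97 in KO, 377 ± 72.9 in HxD and 320 ± 99.1 in V (SD, n = 3), where V 1 stood at 210 CPM and the other 2 at 351 and 401. Its log2 fold changes were -0.15, -0.02 and -0.26 (SE 0.19 each, adjusted p = 0.980, 1 and 0.913 by edgeR). Kif4, a chromosome-bound kinesin, was lowest in V 1 at 58.1 CPM and in WT 3 at 67.1, and highest in WT 2 at 144. Its log2 fold changes were -0.11, 0.16 and -0.34 (SE 0.26 each, adjusted p = 1, 0.973 and 0.926 by edgeR), and that in HxD turned to -0.09 without WT 3. Kif2c, the microtubule-depolymerising kinesin at centromeres, had 216 ± 2.25 CPM in WT, a spread also narrower than its counting error. It was above WT in all 3 KO libraries at 224 to 242 CPM, a log2 fold change of 0.09. Tpx2, which targets Aurora A to the spindle, ranged from 217 to 317 CPM, with both ends in KO.

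The central spindle and cytokinesis genes summed to 1011 ± 80.4 CPM in WT, 908 ± 98.2 in KO, 903 ± 102 in HxD and 901 ± 124 in V (SD, n = 3), overlapping WT in each. Prc1, which cross-links the central spindle, was at 285, 301 and 236 CPM in WT and at 261, 254 and 242 in KO. It was at 249, 200 and 198 CPM in HxD and at 184, 213 and 271 in V. Log2 fold changes were -0.12, -0.35 and -0.30 (SE 0.17 each, adjusted p = 0.991, 0.5997 and 0.833 by edgeR), and WT 3 lay among the other genotypes. Kif23, the kinesin of the centralspindlin complex, had a higher mean outside WT. It was at 105, 107 and 62.7 CPM in WT, 134, 126 and 109 in KO, 96.8, 151 and 139 in HxD, and 128, 117 and 115 in V. KO and V were above all WT libraries, and the log2 fold changes of 0.43, 0.50 and 0.39 (SE 0.22 each, adjusted p = 0.607, 0.580 and 0.833 by edgeR) became 0.22, 0.28 and 0.18 without WT 3.

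Anln, the anillin of the cleavage furrow, had 290 ± 13.5 CPM in WT, 242 ± 47.9 in KO, 233 ± 52.1 in HxD and 248 ± 22.7 in V (SD, n = 3), with only V below all WT libraries. Its log2 fold changes were -0.26, -0.31 and -0.22 (SE 0.18 each, adjusted p = 0.763, 0.621 and 0.945 by edgeR). Kif20a, a kinesin of the central spindle, had 113 ± 15.1 CPM in WT, 97.6 ± 24.8 in KO, 92.1 ± 14.6 in HxD and 98.7 ± 31.4 in V, with log2 fold changes of -0.21, -0.29 and -0.20 (SE 0.24 each, adjusted p = 0.967, 0.797 and 1 by edgeR). Ect2, the exchange factor that activates RhoA at the furrow, was at 226 to 257 CPM in WT and at 181 to 212 CPM in KO, without overlap, and ranged on both sides of WT in HxD.

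Mki67 and Top2a, the usual markers of dividing cells, encode a coat protein of mitotic chromosomes and the topoisomerase that untangles them. Mki67 was at 734, 883 and 877 CPM in WT and at 825, 639 and 721 CPM in KO. It was at 780, 910 and 778 CPM in HxD and at 787, 723 and 1030 in V. All 3 genotypes overlapped WT, with log2 fold changes of -0.19, -0.02 and 0.03 (SE 0.16 each, adjusted p = 0.855, 1 and 1 by edgeR). Top2a was at 1480, 1696 and 1547 CPM in WT and at 1661, 1063 and 1355 CPM in KO. It was at 1529, 1807 and 1260 CPM in HxD and at 965, 1264 and 1446 in V. V alone was below all WT libraries, with a log2 fold change of -0.36 (95% interval -0.71 to -0.02, adjusted p = 0.818 by edgeR), against -0.21 in KO and -0.04 in HxD (adjusted p = 0.839 and 1).

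Libraries that did not overlap between genotypes were counted over the list. In KO, 7 of 35 genes (20%) were below all WT libraries (Ccnb1, Ccnb2, Cdc20, Ect2, Hmmr, Ndc80 and Nuf2) and 2 (5.71%) above (Kif23 and Kif2c), against 8.15% and 8.13% of all genes. In HxD 2 were below (Ccnb1 and Nuf2) and 2 above (Kif20b and Spc25), against 7.22% and 5.26%. In V 4 were below (Anln, Ccnb1, Nuf2 and Top2a) and 2 above (Kif23 and Spc24), against 6.06% and 5.75%. The 20% below WT in KO was the share farthest from its background among these 6, and it was not tested. Between the other genotypes, 4 genes were higher in HxD than KO (Cenpe, Hmmr, Kif20b and Ttk) and 0 lower, against 3.69% and 5.64%. Likewise 4 were higher in V than KO (Ccnb2, Hmmr, Mad2l1 and Ndc80) and 0 lower, against 5.15% and 5.19%, while 1 was higher (Nuf2) and 3 lower (Kif20b, Tpx2 and Ttk) in V than HxD, against 4.79% and 3.2%.

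The 35 genes varied only loosely together from library to library. Over the 595 pairs of genes, the median Pearson correlation of log2(CPM + 1) across the 12 libraries was 0.077, with 55.6% of pairs above 0, and it was 0.080 once genotype means were removed. Pairs among the 3477 genes at comparable levels had a median of 0.016 with 51.6% above 0. These correlations rest on the same 12 libraries and their scaling and are given as a description. The closest pair was Top2a and Kif11 (r = 0.91), followed by Aurka with Kif23 and Bub1 with Ect2 (0.86 each), and the most opposed was Kif20a and Spc25 (-0.76). Ranked by likeness to the mean z-score of the 35 genes, the 10 nearest genes outside the list, from r = 0.86 to 0.82 over 12 libraries, were Caprin1, Cul4a, Wasf2, Ddx3x, Pola1, Smc2, Mib1, Xpot, Zfx and Tox4. Smc2, a condensin subunit, and Pola1, the catalytic subunit of DNA polymerase alpha, act in the cell cycle.

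**Figure D4:**
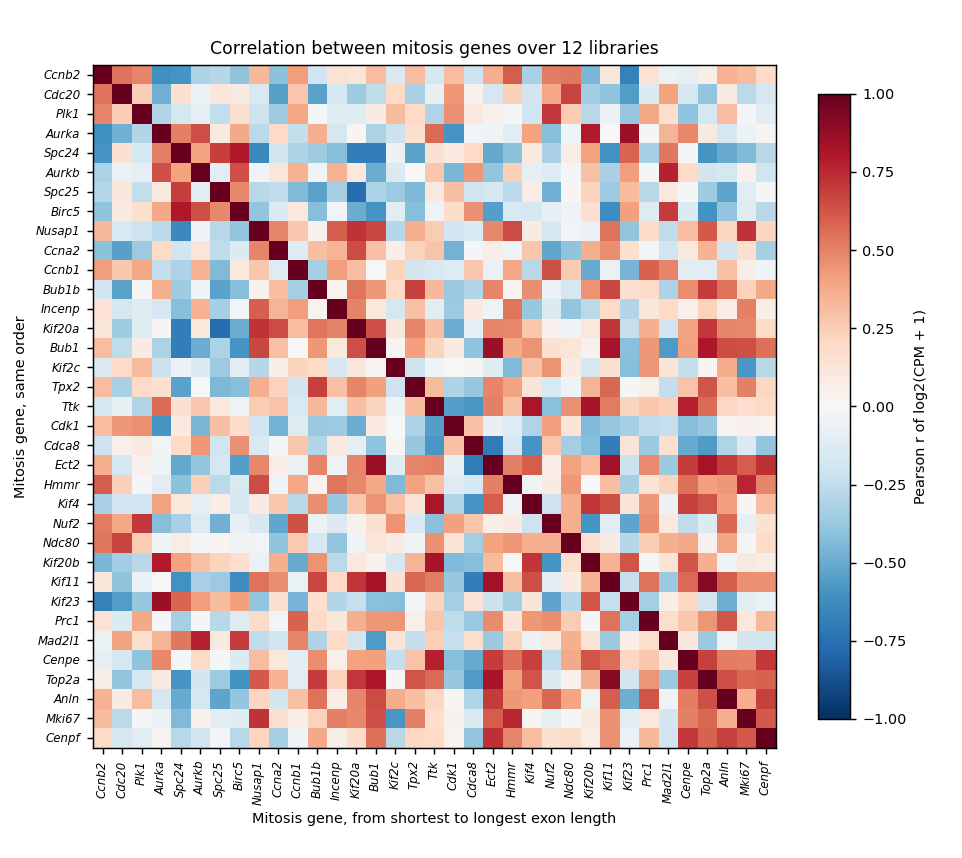
Pearson correlation of log2(CPM + 1) across the 12 libraries for each pair of the 35 mitosis genes, ordered from the shortest to the longest exon length, on a colour scale from -1 to 1. Positive and negative pairs are mixed, from 0.91 for Top2a with Kif11 to -0.76 for Kif20a with Spc25.

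Exon length, the union of all exons annotated for a gene and not the length of 1 transcript, was set beside these differences. The 12 longest members (exon length of at least 6341 bases, among them Top2a, Kif11, Cenpf, Mki67 and Nuf2) were set against the 12 shortest (at most 4275 bases, among them Ccnb1, Ccnb2, Cdc20, Aurka and Birc5). The median log2 deviation of the long genes minus that of the short genes ran from 0.36 in HxD 2 to -0.25 in HxD 3. The same contrast was taken over 3468 genes at comparable levels, between those over 7065 and those under 4121 bases. It ran from 0.20 in HxD 2 to -0.38 in V 1, with the 3 WT libraries at 0.13 to 0.17, V 3 at 0.13 and KO 1 at 0.10. Across the 12 libraries both contrasts rose and fell together (Pearson r = 0.81, Spearman rho = 0.73, given as a description), and r was 0.77 over 10 libraries without KO 2 and V 1, the pair farthest from the median. In KO the median log2 fold change was -0.17 for the long members, 10 of 12 below 0, and 0.09 for the short members, 4 of 12 below 0, beside -0.14 and 0.07 for the long and short genes in general. It was -0.03 and 0.06 in HxD and -0.09 and 0.06 in V, beside -0.08 and 0.07, and -0.16 and 0.10, for long and short genes in general. Ccnb1, Ccnb2 and Cdc20, lower in KO in every library, belong to the short genes. The part of exon length in the differences of single genes was not tested.

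**Figure D5:**
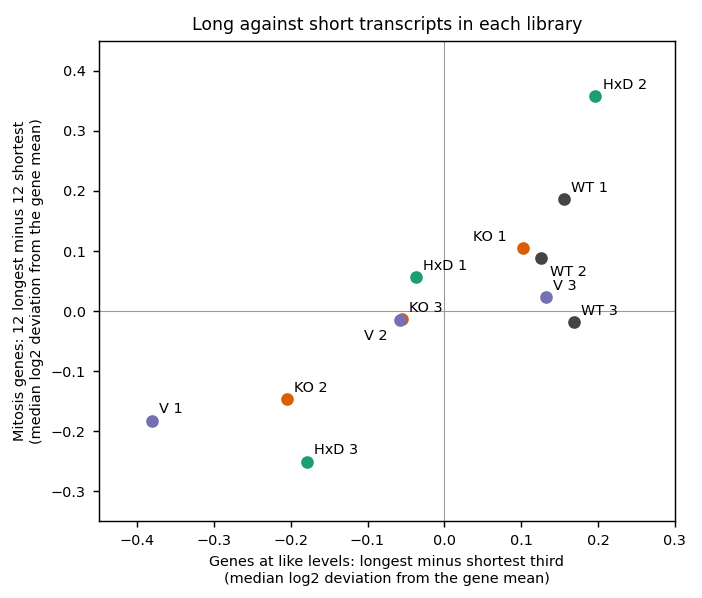
Long-minus-short contrast (median log2 deviation from the gene mean) of the mitosis genes against the same contrast over 3468 genes, one point per library, coloured by genotype. The points follow each other (r = 0.81), with HxD 2, the WT libraries, V 3 and KO 1 to the right and V 1 farthest to the left.

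The wider cell-cycle machinery was covered by lists of 163 further genes, of which 162 were found and tested; like the 35 genes they were chosen with earlier results of these data known. By edgeR, 0 of 162 passed an adjusted p of 0.05 in any pair of genotypes. Of the 161 given an adjusted p by DESeq2, it called 1 in KO (Rb1), 2 in HxD (Rb1 and Ncaph2) and 1 in V (Rb1), all against WT, and 0 in the other pairs. At an unadjusted p under 0.05, 4 were higher and 10 lower in KO, 10 higher and 5 lower in HxD, and 3 higher and 11 lower in V, which is 8.64%, 9.26% and 8.64% of the lists beside the 8.3%, 8.24% and 6.05% of all genes above. Median log2 fold changes were 0.01, 0.04 and 0.06. The 40 DNA replication genes summed to 7930 ± 912 CPM in WT, 8118 ± 436 in KO, 8128 ± 287 in HxD and 7937 ± 498 in V (SD, n = 3), with overlap throughout. The 8 condensin genes summed to 2349 ± 65.0, 2173 ± 222, 2274 ± 78.3 and 2170 ± 332 CPM in the same order.

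Among the regulators of mitotic transcription, Foxm1 was at 94.3 ± 18.3 CPM in WT and 94.1 to 101 CPM on average elsewhere, and Mybl2, which encodes B-MYB, at 235 ± 36.02 in WT, 227 ± 5.79 in KO, 268 ± 2.48 in HxD and 269 ± 16.8 in V (SD, n = 3). Neither passed the test in any pair, with adjusted p from 0.816 to 1 against WT by edgeR. Rb1, which encodes the retinoblastoma protein that restrains E2F factors, had the smallest p of the lists in each comparison with WT. It was at 130, 111 and 116 CPM in WT and at 69.7, 70.4 and 80.6 CPM in KO. It was at 78.2, 64.7 and 56.7 CPM in HxD and at 46.1, 47.5 and 61.6 in V, so all 9 libraries were below WT without overlap. Over all genes tested, 8.15%, 7.22% and 6.06% were below every WT library in KO, HxD and V. The share with all 9 libraries below was not counted. The log2 fold changes of Rb1 were -0.69, -0.84 and -1.20 (SE 0.23 each, adjusted p = 0.289, 0.256 and 0.171 by edgeR). DESeq2 gave adjusted p of 0.0409, 0.00611 and 3.9908e-06. By edgeR, Rb1 was called in V with the replicate number as a block (adjusted p = 0.0198), without a filter on low counts (0.00566) and without WT 2 (0.0450). The other edgeR alternatives did not call it in V, and no edgeR fit called it in KO or HxD. Lin54, a DNA-binding subunit of MuvB, was at 36.4, 42.9 and 43.2 CPM in WT and at 22.0, 16.8 and 21.8 CPM in KO, without overlap (log2 fold change -1.02, SE 0.37, adjusted p = 0.376 by edgeR).

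In the other lists the 2 genes with the smallest p in KO went in either direction, and none passed the edgeR test. Anapc1, the largest subunit of the anaphase-promoting complex, was at 587 ± 97.7 CPM in WT and 408 ± 54.5 in KO (log2 fold change -0.52, adjusted p = 0.463 by edgeR), while Ube2s, a ubiquitin-conjugating enzyme of the complex, had a log2 fold change of 0.53 (adjusted p = 0.523). Pttg1, which encodes securin, was at 43.1, 40.8 and 17.8 CPM in WT and at 73.6, 53.2 and 68.5 in KO (log2 fold change 0.94, SE 0.32, adjusted p = 0.311 by edgeR), with WT 3 the lowest library, and Nipbl, the cohesin loader, had one of -0.37 (adjusted p = 0.623). Of the condensins Ncapg2 had a log2 fold change of -0.52 and Ncaph2 of 0.34 (adjusted p = 0.570 for both by edgeR). Ncaph2 was at 252, 263 and 210 CPM in WT and at 363, 312 and 340 in HxD, without overlap (log2 fold change 0.49, adjusted p = 0.401 by edgeR and 0.00358 by DESeq2). Over all genes tested, 5.26% were likewise above every WT library in HxD. Of the inner centromere genes Cenpm had 0.82 and Cenpc1 -0.60 (adjusted p = 0.484 and 0.496 by edgeR). Zwilch and Spdl1 of the outer kinetochore were at -0.46 and -0.54 (adjusted p = 0.538 and 0.663 by edgeR), and Ccnf and Cdc25c of the CDK1 switch at 0.24 and 0.44 (adjusted p = 0.747 and 0.870). The replication genes Cdc45 and Rfc5 were at 0.39 and 0.34 (adjusted p = 0.637 and 0.692 by edgeR), and the G1 regulators Cdk6 and Ccnd2 at -0.97 and -2.44 (adjusted p = 0.560 and 0.592), Ccnd2 from 14.2 ± 5.63 CPM in WT to 2.604 ± 1.36 in KO (SD, n = 3).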

How the data were processed

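The deposited table holds raw counts, 1 whole number for each gene symbol and library. Poly(A) RNA was captured with oligo-dT beads, per the labels' protocols. Per the submitters' processing notes featureCounts 2.0.3, STAR 2.7.10b, Trim Galore 0.6.7, SAMtools 1.9 and FastQC were used, and the builds GRCm39 and mm10 are named without a role. The annotation used for counting, its strand setting and its filters are not given in sources used here, so reads of overlapping, antisense or near-identical genes cannot be told apart. Of the columns, 12 carry a sample's name and 1 does not and was not used; 1 further WT sample was not analysed here. No pair of libraries held identical counts.

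Counts were filtered with filterByExpr (14702 genes), scaled by TMM and tested with edgeR 4.0.16 in R 4.3.3 (quasi-likelihood F-test, 1 fit to 12 libraries with genotype as the only term, two-sided, Benjamini-Hochberg adjustment over all genes tested, threshold 0.05). Alternatives were DESeq2 1.42.0, its size factors in edgeR, no filter, a filter of 1 CPM in 6 libraries, fits of 2 genotypes, 1 surrogate variable (sva 3.50.0), a replicate block and each library left out. The code was tested on simulated counts. Exon lengths, the union of all exons annotated for a gene, came from GENCODE annotation of GRCm38, and promoters from RefSeq. The 35 genes and the other lists were chosen with earlier results of these data known. Full statistics are given for any member past the threshold, the 3 members of smallest p in each direction and comparison with WT, and the highest and lowest of each role; for other lists, the 2 of smallest p in KO.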

Additional observations from a re-analysis of the deposited data

How the results depend on the processing

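Limits. The median standard error was near 0.19 on the log2 scale with 3 libraries per genotype. Differences well under 2-fold in single mitosis genes were thus not detectable. Larger differences could also fail: Rb1 in V, at -1.20 (SE 0.23), had an adjusted p of 0.171 by edgeR. In V against WT and in V against HxD edgeR called 0 of 14702 genes, so 0 of 35 says little there. Relative levels cannot show a change shared by all RNA. The count of mitosis genes called was 0 in all 102 recounts (other scaling, DESeq2, other filters, fits of 2 genotypes, 1 surrogate variable, replicate block, libraries left out), where the smallest adjusted p was 0.0703, for Hmmr in KO without a filter. With the replicate block 0 of the 35 mitosis genes were called in each pair and their smallest adjusted p was 0.0780 in KO against WT. The sources used here state no pairing by replicate number. Correlations of same-numbered libraries, over all genes tested and with genotype means removed, ran from -0.075 to 0.095. Of the 12 libraries, 2 correlated best with their own number. These values showed no pairing, but with 3 libraries per genotype a weak one could be missed. Of 966 log2 fold changes of named mitosis genes under these alternatives, 918 kept their direction and 48 reversed, none of them called.

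All reversed values belong to small differences. With 1 surrogate variable Incenp was at 0.021 in KO and 0.015 in V. Without WT 3 and V 3 together, Kif20b was at -0.051 in KO and -0.075 in V, Cdk1 at 0.080 in KO and 0.082 in HxD, Incenp at 0.047 in KO and 0.025 in HxD, Kif4 at -0.086 in HxD, Mki67 at 0.023 in HxD and -0.099 in V, and Cdc20 at 0.15 in V. Leaving out each library in turn gave, in KO, -0.051 to 0.34 for Kif20b, -0.16 to 0.080 for Cdk1, -0.082 to 0.047 for Incenp, -0.064 to 0.18 for Bub1b and -0.36 to 0.17 for Kif4. In HxD it gave -0.33 to 0.049 for Cdc20, -0.18 to 0.094 for Top2a, -0.20 to 0.12 for Cdk1, -0.12 to 0.025 for Incenp, -0.0049 to 0.15 for Bub1b, -0.23 to 0.045 for Cenpf, -0.14 to 0.14 for Kif11, -0.087 to 0.44 for Kif4 and -0.098 to 0.033 for Mki67. In V it gave -0.29 to 0.037 for Hmmr, -0.14 to 0.094 for Cdc20, -0.051 to 0.34 for Kif20b, -0.058 to 0.25 for Ccna2, -0.12 to 0.048 for Incenp, -0.083 to 0.046 for Bub1b, -0.22 to 0.0046 for Cenpf, -0.38 to 0.056 for Kif20a and -0.14 to 0.13 for Mki67. The median over the mitosis genes changed sign with a library left out in V against WT (-0.084 to 0.013, above 0 without V 1), HxD against WT (-0.076 to 0.033, above 0 without HxD 3), V against KO (-0.0076 to 0.084, below 0 without V 3) and V against HxD (-0.073 to 0.057, below 0 when any 1 of the HxD libraries, V 2 or V 3 was left out). The median correlation between them was 0.062 without WT 3 and V 3, an alternative chosen after seeing the data. Rb1 was called in V also with no filter (adjusted p = 0.00566), with the replicate block (0.0198) and without WT 2 (0.0450), all by edgeR. It was not called in V by the other edgeR alternatives. The cause was not tested.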
